A study of Helianthus annuus with 12 samples.

Results

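miR162 and miR168 are the microRNAs through which plants regulate the microRNA machinery itself, and their reads were followed here in sunflower (Helianthus annuus), in both organs of young plants. All names of the mature or hairpin class that begin with miR162 or miR168 were taken, which gave 6 of the 163 known microRNA names: 2 of miR162 and 4 of miR168. All 6 were above 0 in each of the 12 libraries. The libraries came from the cultivar R5, which the submitters describe as drought tolerant, taken as young seedlings. Seedlings stood for 24 h in water with 15% PEG 6000, which makes water harder for roots to take up, or in distilled water. Leaves and roots of each were sequenced with 3 libraries per group, and the 4 groups are called control leaf and control root, PEG leaf and PEG root. Total RNA was extracted with Trizol and libraries were made with BGI500 protocols, per the labels. The labels do not say whether replicates were separate plants, so p-values measure only the spread between these libraries. Small RNA counts hold no marker gene of leaf or root tissue, so the organ labels were not checked against markers.

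In plants, DICER-LIKE1 cuts microRNA duplexes from hairpin precursors and ARGONAUTE1 carries the mature strand to target transcripts. In Arabidopsis miR162 targets the DICER-LIKE1 transcript and miR168 targets the ARGONAUTE1 transcript, so each tunes an enzyme on which it depends. The mature strand lies on the 3p arm of the precursor for miR162 and on the 5p arm for miR168. No transcript of either target was measured here.

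Libraries held 20829490 to 33426228 counts, of which 2161422 to 4606637 lay in known and predicted microRNAs together and 79.7% to 86.0% in exon, intron and intergenic entries without a name. In leaf libraries 7.80% to 10.03% of all reads were known microRNAs, and in root libraries 0.550% to 2.29%. The lowest of these, control root replicate 3, also had the lowest sums of both families. Levels below are reads per 1000000 reads of the library, unnamed entries included (RPM), a scale with no further factor. Fold changes come from fits with scaling factors that are described under the processing.

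The names are those of microRNAs known from other species. The name miR162a-3p stands for 35 database entries, among them those of Arabidopsis and rice, and miR162-3p for 2, of maize and soybean. In the miR168 family miR168a-5p stands for 27 entries, among them Arabidopsis and soybean. The names miR168 (melon), miR168b_1 (soybean) and miR168b-3p (maize) stand for 1 entry each. The file gives no sequence for any of them, so the bases that separate names of a family are not shown. Names of 1 family can compete for the same reads, and the family sum does not depend on how reads were split among them.

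The split between the 2 miR162 names changed from library to library (see the plot of both names in each library). miR162a-3p held 95.7%, 98.6% and 97.3% of the miR162 reads in control leaf replicates 1 to 3. In control roots its share was 94.3%, 96.1% and 95.6%. Under PEG it held 96.5%, 6.44% and 3.17% in leaves. In PEG roots it held 4.81%, 2.22% and 94.7%. Thus all 6 control libraries and PEG leaf replicate 1 and PEG root replicate 3 were read almost wholly as miR162a-3p, and the other 4 PEG libraries almost wholly as miR162-3p. The mean difference of the share, PEG minus control within organs, was -61.6 percentage points (exact permutation test over 12 libraries, two-sided, p = 0.02, adjusted p = 0.072 over 18 tests). No library showed an even mix.

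**Figure D1:**
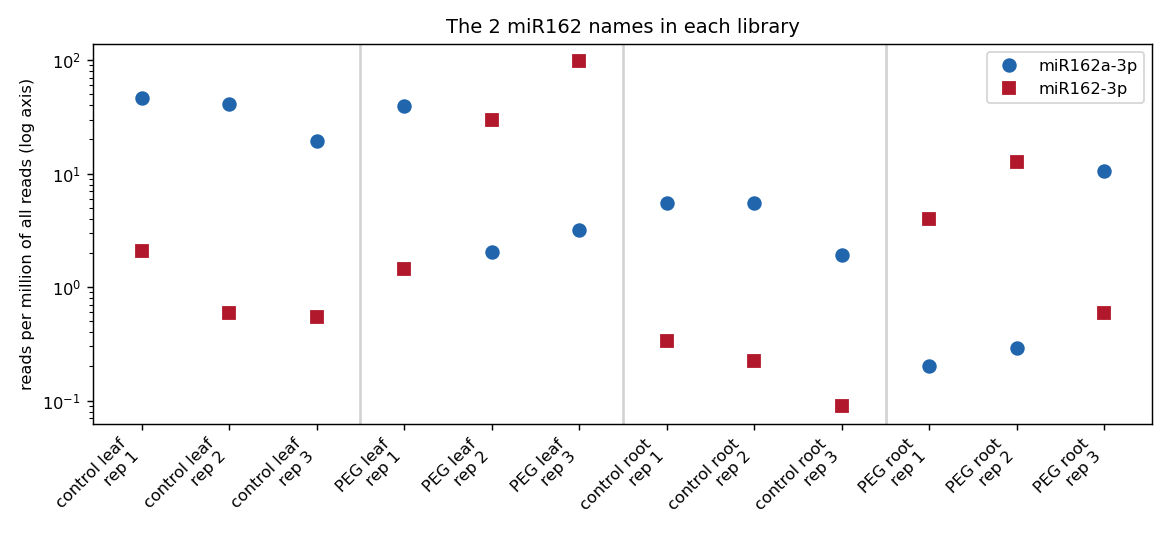
RPM (log axis) of miR162a-3p (circles) and miR162-3p (squares) in each of the 12 libraries, in 4 groups of 3. miR162a-3p was above miR162-3p in 8 libraries, and miR162-3p was above miR162a-3p in PEG leaf replicates 2 and 3 and PEG root replicates 1 and 2.

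The same kind of switch was present in other families. Of 20 known families with at least 2 names and at least 20 counts in each library, 5 had a leading name whose share of the family ranged over more than 80 percentage points across libraries: miR162, miR160, miR167, miR172 and miR395. In miR395, a family that targets genes of sulphate assimilation, the leading name held 1.64% in control leaf replicate 1 and 97.9% in control leaf replicate 3, so control libraries switched too. In miR167, which targets auxin response factors, it held 1.45%, 96.3% and 2.77% in the 3 control leaf libraries. In miR160 it held 86.3% in control leaf replicate 3 and 2.13% in replicate 1, and leaves overlapped between treatments. In roots the miR160 share split by treatment, at most 2.68% in the 3 control libraries and at least 90.8% in the 3 PEG libraries. In roots the other families of these 5 overlapped between treatments. In leaves miR172 also separated, but at low shares, at most 1.89% in controls and 6.06% to 11.4% under PEG. PEG effects on the shares of miR160 and miR172 were not tested. The libraries with a low share differed from family to family. How the reads were assigned to names by the authors, and its part in these switches, was not tested. miR168 did not switch: miR168a-5p held between 84.5% and 88.9% of the miR168 reads in all 12 libraries.

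**Figure D2:**
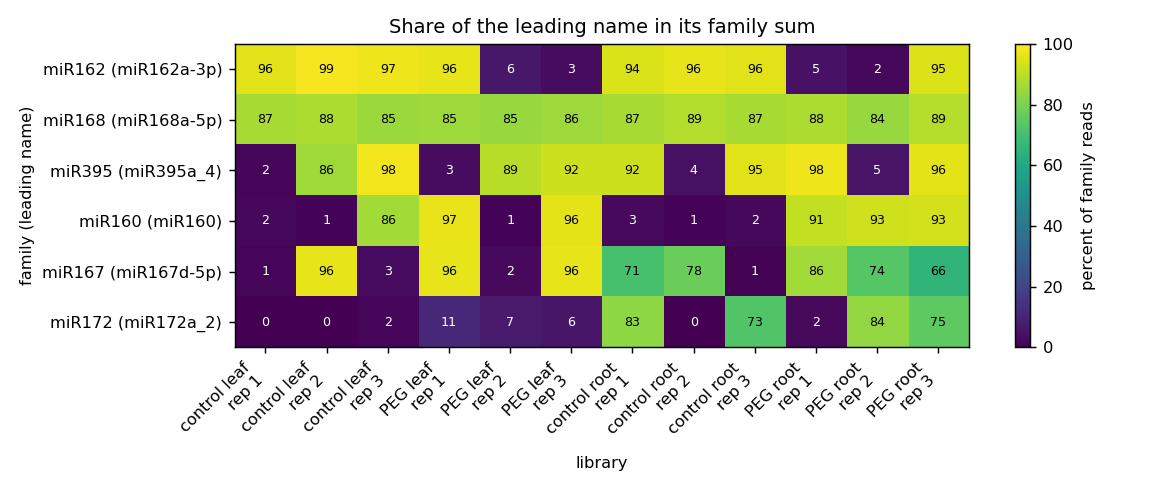
Share (percent) of the most abundant name in the reads of its family, for miR162, miR168 and the 4 other families with a wide range, in each library. miR168a-5p stayed between 84.5% and 88.9%, while in each of the other 5 families the share ranged over more than 80 percentage points.

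Both families were far lower in roots than in leaves. The miR162 sum stood at 48.1, 41.5 and 19.9 RPM in control leaves and at 5.91, 5.76 and 2.01 RPM in control roots. In PEG leaves it stood at 40.9, 31.7 and 101 RPM and in PEG roots at 4.17, 13.1 and 11.0 RPM. Each root library lay below each leaf library, although replicates within a group differed widely. The miR168 sum was far larger in each group, at 5819.9, 5524 and 7015 RPM in control leaves and 1056, 1339 and 326 RPM in control roots. In PEG leaves it stood at 6468, 5225 and 8708 RPM and in PEG roots at 2354, 1923 and 1723 RPM. Again no root library reached a leaf library. Of the 34 known families 58.8% were lower in control roots than in control leaves without overlap, and 58.8% under PEG. Lower reads in an organ cannot be told apart from fewer cells that make the microRNA.

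**Figure D3:**
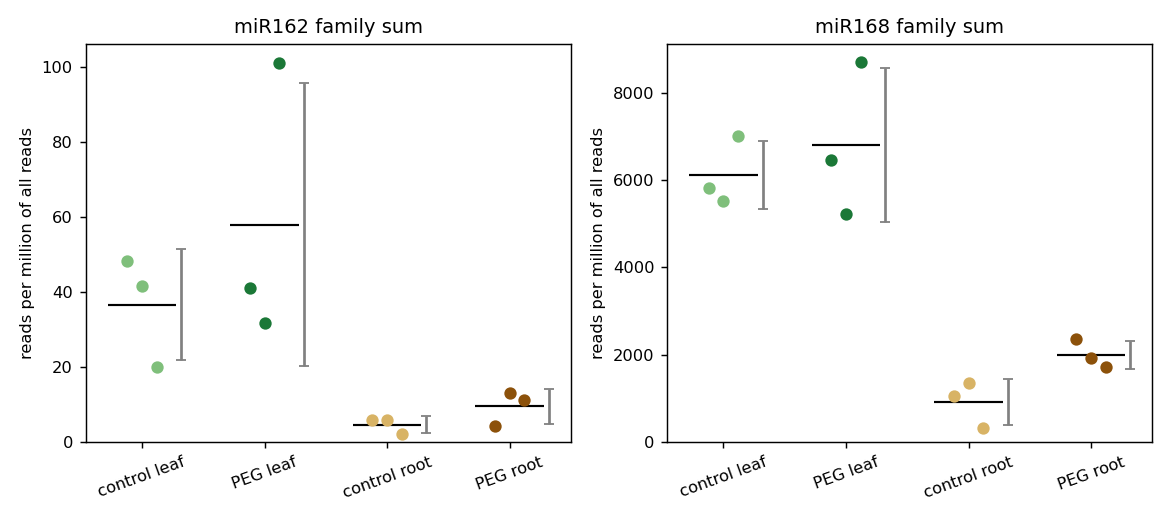
Sum of reads over the names of miR162 (left) and miR168 (right), in RPM, per library (points), with the group mean (line) and SD (grey bar, n = 3). All 6 root libraries lie below all 6 leaf libraries for both families.

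In control seedlings the mean of miR162 was 36.5 ± 14.8 RPM in leaves and 4.56 ± 2.21 RPM in roots (SD, n = 3 each), and its family sum was lower in roots with a log2 fold change of -2.54 (SE 0.66, 95% interval -3.96 to -1.12, edgeR adjusted p = 0.00329). miR168 stood at 6119.6 ± 789 RPM in leaves and 907 ± 522 RPM in roots (log2 fold change -2.48, SE 0.43, interval -3.41 to -1.56, edgeR adjusted p = 0.000181). Under PEG the difference between organs was -2.80 for miR162 (SE 0.66, interval -4.22 to -1.37, edgeR adjusted p = 0.00239) and -1.93 for miR168 (SE 0.42, interval -2.83 to -1.02, edgeR adjusted p = 0.00157). These calls stood among many. Of all 124 families 79.8% differed between control organs and 70.2% between PEG organs; 38.7% were called lower in control roots and 31.5% in PEG roots, and of the 34 known families 55.9% and 47.1%. The median log2 fold change of known families was -1.58 in controls and -1.45 under PEG, and from the lowest upwards miR162 ranked 8 and miR168 ranked 10 of 34 in controls. Both calls of each family were kept with any single library left out.

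The difference between organs became smaller when known microRNAs alone formed the library. With that scale miR162 had a log2 fold change of -0.92 in controls (edgeR adjusted p = 0.181) and -1.30 under PEG (edgeR adjusted p = 0.0580), so neither call held. For miR168 the values were -0.77 in controls (edgeR adjusted p = 0.0112) and -0.48 under PEG (edgeR adjusted p = 0.0791). As a plain share of known microRNA counts, a measure that was not planned and has no scaling factor, miR168 was not lower in roots at all. It held 6.56%, 6.06% and 7.52% in control leaves, 9.44%, 7.24% and 5.94% in control roots, 8.29%, 6.13% and 8.68% in PEG leaves and 10.3%, 9.85% and 8.99% in PEG roots. The 3 PEG roots held the largest shares apart from control root replicate 1, which lay between them. Between organs, within treatments, this share differed by 1.41 percentage points, higher in roots (exact permutation test, p = 0.075, adjusted p = 0.193 over 18 tests), and by 1.81 without control root replicate 3 (exact permutation test, unadjusted p = 0.02). With 1 library left out the difference ranged from 0.94 to 1.81. miR162 held 0.0213% to 0.0542% of known microRNA counts in control leaves and 0.0311% to 0.0528% in control roots, which overlapped. The direction of miR168 between organs thus changed with the scale.

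**Figure D4:**
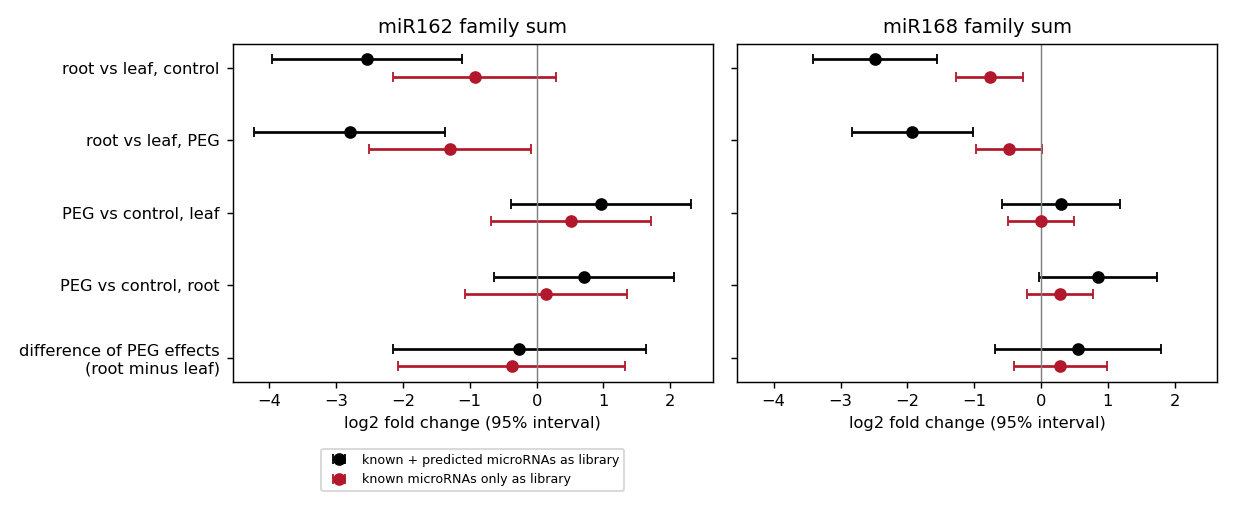
Log2 fold changes with 95% intervals of the miR162 (left) and miR168 (right) family sums in 5 comparisons, from edgeR with known and predicted microRNAs as the library (black) or known microRNAs alone (red). The differences between organs shrink towards 0 on the second scale, from -2.54 to -0.92 for miR162 and from -2.48 to -0.77 for miR168 in controls, and the intervals of all comparisons of PEG with control include 0.

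PEG did not change either family sum by a margin that passed the test. In leaves miR162 went from 36.5 ± 14.8 to 57.9 ± 37.7 RPM (SD, n = 3 each; log2 fold change 0.97, interval -0.38 to 2.31, edgeR adjusted p = 0.399), with PEG leaf replicate 3 alone above all control leaves. miR168 went from 6119.6 ± 789 to 6800.1 ± 1765 RPM (0.30, interval -0.58 to 1.18, edgeR adjusted p = 0.785), with overlapping libraries. Of all families 3.23% passed in this comparison. The median log2 fold change of the 34 known families under PEG was 0.24 in leaves and 0.35 in roots. In roots miR162 went from 4.56 ± 2.21 to 9.43 ± 4.67 RPM (0.71, interval -0.64 to 2.06, edgeR adjusted p = 0.519). PEG root replicates 2 and 3 lay above all control roots, and replicate 1 lay between them. miR168 went from 907 ± 522 to 1999.9 ± 323 RPM (0.86, interval -0.03 to 1.74, edgeR adjusted p = 0.326). The size of this value moved with the scaling, from 0.29 with at least 50 counts to 1.31 with library totals (edgeR adjusted p = 0.101), without a call. Here each PEG root library lay above each control root library, as was so for 17.6% of the 34 known families. The share of known microRNAs in all reads was itself higher in the PEG roots, at 1.92% to 2.29% against 0.550% to 1.85% in control roots, and its part in the higher RPM was not tested. Among the 124 families edgeR called 0 (0%) in roots, where 19 had an unadjusted p under 0.05, and the 22 that DESeq2 called did not include miR162 or miR168. As a share of known microRNA counts, miR168 was 1.57 percentage points higher under PEG within organs (exact permutation test, p = 0.055, adjusted p = 0.165 over 18 tests). With 1 library left out this difference ranged from 1.17 to 2.05. Without control root replicate 1 it was 2.05 and without PEG leaf replicate 2 it was 1.97 (exact permutation test, unadjusted p = 0.02 each). For miR162 this difference was 0.0153 percentage points (exact permutation test, p = 0.285, adjusted p = 0.466).

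The PEG effects did not differ between organs by a margin that passed. The difference, root minus leaf, was -0.26 on the log2 scale for miR162 (interval -2.16 to 1.64, edgeR adjusted p = 0.923) and 0.56 for miR168 (interval -0.69 to 1.80, edgeR adjusted p = 0.602). These intervals leave room for differences of more than 1 log2 unit in either direction for miR162 and in the positive direction for miR168. Among all families edgeR called 0 (0%) here, 30 had an unadjusted p under 0.05, and the 30 that DESeq2 called did not include either family.

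Of the 4 names of miR168, miR168a-5p and miR168b-3p were lower in roots by test. miR168a-5p, by far the most abundant, stood at 5054, 4851 and 5969 RPM in control leaves and 917, 1186 and 284 RPM in control roots. In PEG leaves it stood at 5512, 4419 and 7447 RPM and in PEG roots at 2060.1, 1625 and 1532 RPM. Tested over 10604 small RNA features, its log2 fold change between organs was -1.57 in controls (SE 0.28, edgeR adjusted p = 0.00371) and -1.28 under PEG (SE 0.28, edgeR adjusted p = 0.00821). miR168b-3p, a name of the opposite arm of the precursor, stood at 454, 497 and 599.9 RPM in control leaves and 75.7, 73.3 and 15.7 RPM in control roots. In PEG leaves it stood at 574, 582 and 484 RPM and in PEG roots at 98.3, 124 and 102 RPM. Its organ difference was -2.11 in controls (SE 0.30, edgeR adjusted p = 0.00123) and -1.87 under PEG (SE 0.29, edgeR adjusted p = 0.00378). These were the 2 of 6 names called in each organ comparison, beside 18.3% of all features called lower in control roots and 12.3% in PEG roots. Of the 129 known names tested, 26 were called lower in control roots and 27 in PEG roots. The median log2 fold change between organs was -0.43 in controls and -0.93 under PEG for known names, and -4.75 and -1.15 for all features. The size of the organ differences of miR168a-5p and miR168b-3p moved with the setting. In controls it ranged from -3.39 to -1.51 for miR168a-5p and from -3.88 to -2.05 for miR168b-3p over scalings, count minimums and tools, with the largest values when siRNAs were left out. The call of miR168a-5p under PEG did not hold with library totals as the only scaling (log2 fold change -1.41, edgeR adjusted p = 0.0574).

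The less abundant names of miR168 had the same sign without passing in edgeR as set up here, and the call of the name miR168 depended on the setting. miR168 as a name went from 261 ± 94.2 RPM in control leaves to 47.8 ± 23.7 RPM in control roots (SD, n = 3 each; log2 fold change -1.25, edgeR adjusted p = 0.0837). Under PEG it stood at 348 ± 191 RPM in leaves and 119 ± 39.8 RPM in roots (-1.09, edgeR adjusted p = 0.145). The control difference passed without control leaf replicate 2 (-1.53, edgeR adjusted p = 0.0457) or PEG leaf replicate 3 (-1.25, edgeR adjusted p = 0.0457). It also passed with library totals (-2.27, edgeR adjusted p = 0.0109) or all reads (-2.45, edgeR adjusted p = 0.00812) as scaling and in DESeq2 (-1.35, adjusted p = 0.0333). Under PEG it passed in DESeq2 (-1.38, adjusted p = 0.0397). miR168b_1 was the most variable of the 4. It stood at 29.1, 19.5 and 104 RPM in control leaves, 81.6, 39.9 and 218 RPM in PEG leaves, 9.03, 12.4 and 5.71 RPM in control roots and 38.5, 50.4 and 10.5 RPM in PEG roots. Its log2 fold changes between organs were -1.22 in controls (edgeR adjusted p = 0.257) and -1.34 under PEG (edgeR adjusted p = 0.269). Both names passed in each organ comparison when siRNAs were left out of the tested table, which then called 4 of 6 names. Within the family miR168 as a name held 2.85% to 6.68% of reads, miR168b_1 0.354% to 2.62% and miR168b-3p 4.17% to 11.1%.

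The names of miR162 did not pass between organs with all libraries, and their errors were wide. The fit takes 1 estimate of the spread per name from all 12 libraries, so the switched PEG libraries enter the errors in controls. In RPM both names lay lower in control roots than in control leaves without overlap, as did 48.1% of the 129 known names tested. miR162a-3p stood at 46.0, 40.9 and 19.3 RPM in control leaves and 5.57, 5.54 and 1.92 RPM in control roots (log2 fold change -1.79, SE 1.43, edgeR adjusted p = 0.318). In PEG leaves it stood at 39.5, 2.04 and 3.20 RPM and in PEG roots at 0.201, 0.290 and 10.5 RPM, so these groups overlapped. Without PEG root replicate 3 this organ difference under PEG passed, at -5.43 against -1.51 with all libraries (edgeR adjusted p = 0.0239). miR162-3p stood at 2.09, 0.591 and 0.543 RPM in control leaves and 1.45, 29.6 and 97.9 RPM in PEG leaves. In control roots it stood at 0.336, 0.225 and 0.0892 RPM, from 7, 5 and 2 counts, and in PEG roots at 3.97, 12.8 and 0.587 RPM. Its organ difference was -1.08 in controls (edgeR adjusted p = 0.539) and -2.49 under PEG (edgeR adjusted p = 0.211). Its log2 fold change under PEG was 5.49 in leaves (SE 1.51, edgeR adjusted p = 0.703) and 4.08 in roots (SE 1.48, edgeR adjusted p = 0.242), and neither passed. DESeq2 called this name in both organs, with log2 fold changes of 5.52 (DESeq2 adjusted p = 0.00256) and 3.97 (DESeq2 adjusted p = 0.0300). miR162a-3p had log2 fold changes of opposite sign, -1.13 in leaves (SE 1.40) and -0.85 in roots (SE 1.40). With 1 library left out miR162a-3p ranged from -3.57 to -0.62 in leaves and from -4.69 to -0.29 in roots. Over the same fits miR162-3p ranged from 3.97 to 6.41 and from 2.78 to 4.68. The sum of both names differed by 0.97 and 0.71, as given above. It comes from the family fit, whose scaling differs from that of the fit by name, so the sizes are not directly comparable. No name of either family passed for PEG in edgeR, where 0% of features passed in leaves (382 at an unadjusted p under 0.05) and 2.17% in roots. miR162-3p had an unadjusted p of 0.00441 in leaves. For the difference of PEG effects between organs none of the 6 names passed in edgeR, where 2.03% of features did.

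The balance of the 2 families was compared as a ratio within each library, which needs no scaling. There were 121, 133 and 353 miR168 reads per miR162 read in control leaves, 158, 165 and 86.2 in PEG leaves, 179, 232 and 163 in control roots and 564, 147 and 156 in PEG roots. The ratio stayed within one order of magnitude and groups overlapped. On the log2 scale it was 0.46 higher in roots within treatments (exact permutation test, p = 0.345, adjusted p = 0.478 over 18 tests) and differed by -0.07 under PEG within organs (exact permutation test, p = 0.87, adjusted p = 0.926). PEG root replicate 1, with 104 miR162 reads, gave the highest ratio. With 45 to 316 reads of miR162 in root libraries, counting error adds to the spread of this ratio there. The shares of all reads of both families differed between organs with the smallest p that 400 permutations allow (exact permutation test, p = 0.005, adjusted p = 0.03 over 18 tests for each family).

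Names of both arms of miR168 precursors, miR168b-3p and miR168a-5p, were compared, a measure added after the data had been seen. They stand for different database entries, so whether their reads come from the same precursor is not known. The names miR168 and miR168b_1 were left out of this ratio. Per 100 reads of miR168a-5p there were 8.99, 10.2 and 10.1 reads of miR168b-3p in control leaves, while control roots had 8.26, 6.18 and 5.53. There were 10.4, 13.2 and 6.50 in PEG leaves and 4.77, 7.66 and 6.66 in PEG roots. Control roots lay below control leaves without overlap, and under PEG leaf replicate 3 lay among the roots. The ratio was 3.38 reads lower in roots within treatments (exact permutation test, p = 0.02, adjusted p = 0.072 over 18 tests), which did not pass the adjustment. Paired sign flips by replicate number gave an exact p of 0.0625. PEG changed it by -0.01 on average (exact permutation test, p = 1, adjusted p = 1).

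Reads assigned to the Rfam family of MIR168 precursors (RF00677), which lie outside the mature names, gave a further readout, also chosen after its values were seen. RF00677 held 28.7, 25.3 and 34.3 RPM in control leaves, 27.8, 77.4 and 110.03 RPM in PEG leaves, 19.5, 31.8 and 9.72 RPM in control roots and 37.5, 44.5 and 32.5 RPM in PEG roots. PEG leaf replicates 2 and 3 thus stood above all other libraries, and replicate 1 among the control leaves. These are also the leaf libraries in which the miR162 name switched. The log2 fold change under PEG was 1.43 in leaves (SE 0.47, unadjusted p = 0.0119, edgeR adjusted p = 0.703) and 0.27 in roots (SE 0.46, edgeR adjusted p = 1). Relative to mature reads, there were 0.494, 0.458 and 0.488 RF00677 reads per 100 miR168 family reads in control leaves, while control roots had 1.85, 2.37 and 2.98. There were 0.429, 1.48 and 1.26 in PEG leaves and 1.59, 2.31 and 1.89 in PEG roots. Each root library lay above each leaf library, with a mean difference of 1.40 reads per 100 within treatments (exact permutation test, p = 0.005, the smallest that 400 permutations allow, adjusted p = 0.03 over 18 tests). As the measure was chosen with its values in view, this p-value is a description only. The miR168 sum, lower in roots in RPM, is its denominator. The mature reads were lower in roots while those of RF00677 overlapped between organs in controls, at 29.4 ± 4.52 and 20.3 ± 11.0 RPM (SD, n = 3 each). The files do not tell intact precursors from fragments. The Rfam family of MIR162 precursors (RF00742) held 0 to 5 counts per library and was too low to test.

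**Figure D5:**
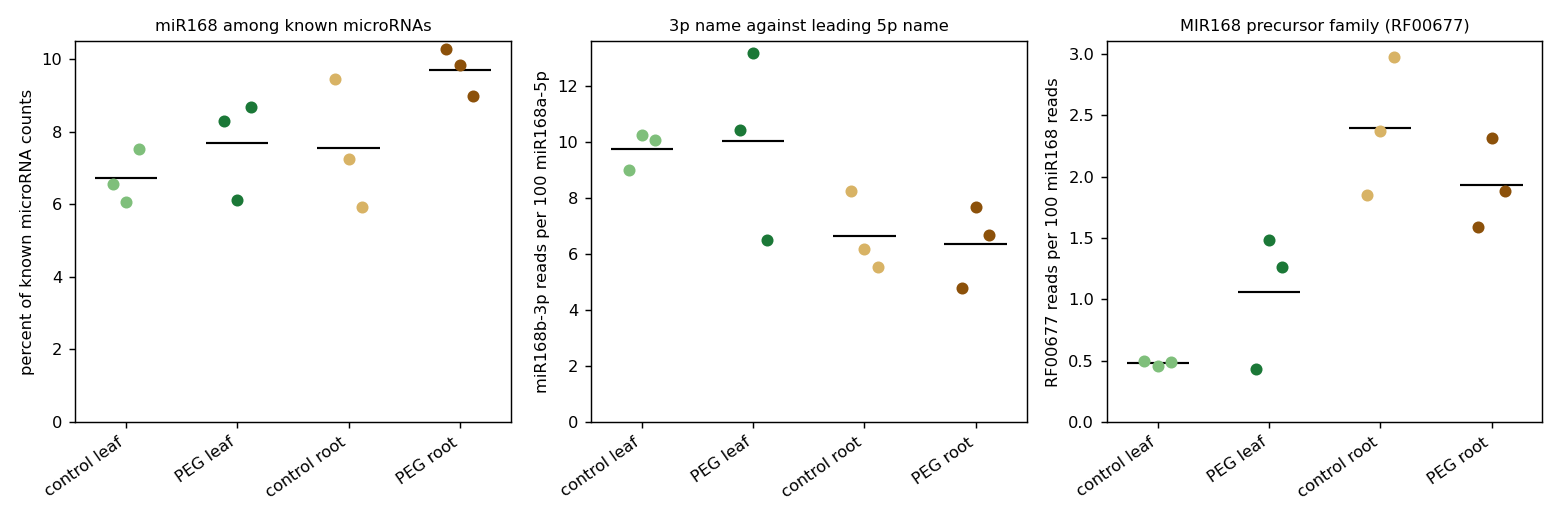
Per library (points) and group mean (line), the share of miR168 in known microRNA counts (left, percent), reads of miR168b-3p per 100 of miR168a-5p (middle) and reads of the MIR168 precursor family RF00677 per 100 miR168 reads (right). The right panel shows all 6 roots above all 6 leaves, from 1.59 upwards against at most 1.48, while the left and middle panels overlap between organs.

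Among other regulators of the small RNA pathway, miR390 acts with ARGONAUTE7 to start the making of TAS3 small interfering RNAs, and miR403 targets the ARGONAUTE2 transcript in Arabidopsis. miR173 and miR828, which also start the making of small interfering RNAs, were not analysed here. miR390 was higher in roots, at 27.3 ± 6.75 RPM in control leaves and 58.0 ± 35.6 RPM in control roots (SD, n = 3 each; log2 fold change 1.46, SE 0.53, edgeR adjusted p = 0.0232). Under PEG it stood at 20.9 ± 1.51 and 75.04 ± 17.98 RPM (1.69, SE 0.53, edgeR adjusted p = 0.0128). The call in controls did not hold without control leaf replicate 1 (1.16, edgeR adjusted p = 0.0696) or control root replicate 1 (0.93, edgeR adjusted p = 0.107), nor with library totals (edgeR adjusted p = 0.0714) or all reads (edgeR adjusted p = 0.0728) as scaling. miR403 stood at 63.3 ± 6.18 RPM in control leaves and 38.0 ± 15.4 RPM in control roots (-0.38, SE 0.45, edgeR adjusted p = 0.442) and at 71.2 ± 9.13 and 64.9 ± 21.4 RPM under PEG (-0.29, SE 0.44, edgeR adjusted p = 0.559). With known microRNAs alone as the library, miR403 turned higher in roots, with log2 fold changes of 1.41 (edgeR adjusted p = 0.00348) and 1.14 (edgeR adjusted p = 0.0126). So of 4 pathway families tested, 2 were lower and 1 higher in roots in both treatments, beside 38.7% lower and 41.1% higher among all families in controls and 31.5% and 38.7% under PEG. Among the 34 known families, 55.9% were lower in controls and 47.1% under PEG, so 2 of 4 is near their share. Neither miR390 nor miR403 passed for PEG in leaves (-0.23 and 0.33) or in roots (0.00 and 0.43), and these small values changed sign under some settings.

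Across the 12 libraries the known families whose log2 levels were most like those of miR162 were miR167, with a Pearson correlation of 0.91, miR393 with 0.91 and miR168 with 0.90, out of 33 other families. For miR168 they were miR166 with 0.97, miR5538 with 0.96 and miR398 with 0.94. The values over all libraries include the difference between organs, so they were also taken over the 6 libraries of each organ. Those of miR162 were 0.60 in leaves and 0.79 in roots with miR167, 0.50 and 0.92 with miR393, and 0.34 and 0.79 with miR168. Those of miR168 were 0.65 and 0.98 with miR398, -0.59 and 0.97 with miR166, and -0.089 and 0.98 with miR5538. Root values were thus high for all of these pairs, and leaf values ranged from negative to positive. High root values were not particular to these pairs. With miR162, miR172 ranked 31 of 33 over all libraries and had 0.99 in roots. With miR168, miR403 and miR399 ranked 20 and 26 and had 0.98 each in roots. The root values of miR6300 were negative, at -0.85 with miR162 and -0.92 with miR168. Libraries share their scaling and their organ, so these are descriptions of likeness only.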

How the data were processed

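The deposited table holds counts of reads per small RNA feature for 12 libraries, and the authors gave the same values as TPM. The deposited TPM equalled the count per 1000000 of the column total in 99.99% of cells (tolerance 0.0051 or 0.1% of the value, with 0.001 for a count of 0) and was not used further. Bowtie and Bowtie2 2.2.9 appear in the submitters' processing notes, with no role stated. For mapping settings, genome build and database releases the sources used here give nothing. Entries that name no feature (3 of 15903: exon, intron and intergenic reads) stayed out of the tests.

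Tests on counts used edgeR 4.0.16 under R 4.3.3 (TMM factors, quasi-likelihood test, 1 mean per group over all 12 libraries, no replicate block) and Benjamini-Hochberg adjustment at 0.05, keeping features that reached 10 counts in 3 or more libraries. Family sums were tested over known and predicted microRNAs (124 families), names over all 10604 named features. For single measures, exact permutation tests (two-sided) permuted labels within organ or treatment (400 permutations, smallest p 0.005; 3 against 3 libraries allow no p under 0.1), adjusted over 18 tests. Intervals cover the spread between libraries, and counts without molecular identifiers are not independent molecules.

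The members, lists and tests were chosen with earlier results of these data known. All 6 names are reported; likeness names the 3 known families with the highest Pearson correlation of log2(CPM + 1). Alternatives were DESeq2 1.42.0 (also its size factors in edgeR), library totals or all reads as scaling, other count minimums, known microRNAs alone or siRNAs left out, the replicate block and each library left out. Control leaf and control root libraries of the same number deviated together (correlations 0.159 to 0.200). The sample titles share the number without stating what it pairs. PEG leaf and PEG root libraries of the same number deviated in opposite directions (-0.161, -0.136 and -0.146). So did those of control leaf and PEG leaf (-0.291, -0.0774 and -0.124) and of PEG leaf and control root (-0.129, -0.0329 and -0.0875). In the remaining pairs of groups the signs were mixed. The scripts were tested on simulated data.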

Additional observations from a re-analysis of the deposited data

How the results depend on the processing

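For the 25 main results 446 alternatives were run, of which 417 were scored as keeping direction and call. A count of names called was also scored as kept when it moved little, as from 2 to 3 with 1 library left out. The lower levels of both family sums in roots held in every alternative but these. With known microRNAs alone as the library, miR162 fell short of the threshold at -0.92 in controls and -1.30 under PEG, and miR168 at -0.48 under PEG. Leaving out the 4 PEG libraries in which the miR162 name switched, an alternative chosen after seeing the data, leaves 1 library in each PEG group, which is assumed to vary like the controls. Values from it compare single PEG libraries and say little of a lost call or a turned sign. There miR162 stood at -2.36 under PEG (SE 1.06, edgeR adjusted p = 0.0890). With 1 library left out, miR162 ranged from -2.76 to -2.33 in controls and from -3.23 to -2.31 under PEG, and miR168 from -2.71 to -2.10 and from -2.24 to -1.90.

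Several values without a call changed sign, most but not all of them near 0, and the cause was not tested. The difference of PEG effects for miR162 became 0.72 with library totals, 0.38 with all reads, 0.019 with at least 50 counts and 0.14 without the 4 libraries, and ranged from -0.74 to 0.19 with 1 library left out. That of miR168 became -0.028 (SE 0.88) without the 4 libraries, and its PEG effect in leaves -0.19 with at least 50 counts. For miR390, PEG gave 0.087 in leaves without the 4 libraries, and in roots -0.46 with DESeq2 size factors, -0.46 with DESeq2, -0.50 with at least 50 counts, -0.60 with known microRNAs alone and -0.44 to 0.53 with 1 library left out. Its difference became -0.097 with known microRNAs alone and ranged from -0.32 to 0.77. For miR403, PEG gave -0.18 in leaves with at least 50 counts, and in roots -0.13 with DESeq2 size factors, -0.12 with DESeq2, -0.31 with at least 50 counts, -0.23 with known microRNAs alone, -0.27 without the 4 libraries and -0.081 to 0.49 with 1 library left out. Its organ difference turned from -0.38 to a called 1.41 in controls and from -0.29 to a called 1.14 under PEG with known microRNAs alone, and was 0.13 under PEG with library totals. Its difference of PEG effects was -0.15, -0.14 and -0.14 with DESeq2 size factors, DESeq2 and at least 50 counts, -0.26 with known microRNAs alone, -0.82 without the 4 libraries and -0.51 to 0.33 with 1 library left out. These scalings moved the median of all families by up to 0.63.

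By name, the difference of PEG effects became -0.025 for miR168 with DESeq2 size factors and with DESeq2, and for miR168b_1 it became 0.91 with library totals, 0.72 with all reads and 1.06 without siRNAs. Without siRNAs the PEG effect in leaves became -0.055 for miR168a-5p and -0.091 for miR168b-3p. RF00677 between control organs became -0.36 with library totals, -0.53 with all reads and -1.21 without siRNAs, where its difference of PEG effects became 0.020. With 1 library left out the difference of PEG effects ranged from -2.71 to 0.12 for miR162-3p, -3.51 to 2.71 for miR162a-3p, -0.16 to 0.73 for miR168 and -1.26 to 0.84 for miR168b_1. The organ difference under PEG ranged from -5.43 to 0.92 for miR162a-3p and -0.86 to 0.024 for RF00677, and the PEG effect of the name miR168 in leaves from -0.023 to 0.86. Among the 6 names DESeq2 called 1 for PEG in leaves and 1 in roots, beside 26 and 408 of 10529 features. In control organs 4 were called with all reads as the library, beside 3886 of 10604 features (3470 lower in roots). Without siRNAs 4 were called in controls, beside 262 of 338 features (118 lower in roots). Under PEG 4 were called without siRNAs, beside 203 of 338 features (79 lower in roots). With library totals 1 was called under PEG, beside 1611 of 10604 features (1230 lower in roots).

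The log2 ratio of miR168 to miR162 under PEG became 3.02 when only the most abundant name of each family was used. For miR162 that name was miR162a-3p, which held 6.44% and 3.17% of its family in PEG leaf replicates 2 and 3. In PEG root replicates 1 and 2 it held 4.81% and 2.22%. In these leaf and root libraries the log2 ratio was 11.1, 11.2, 13.3 and 12.5 by leading names and 7.37, 6.43, 9.14 and 7.20 by family sums. PEG leaf replicate 1 and PEG root replicate 3 stood at 7.12 and 7.19 against 7.30 and 7.29. The 3.02 thus includes the switch of miR162 names. With 1 library left out, the PEG difference by family sums ranged from -0.38 to 0.18. The share of miR162a-3p between organs then ranged from -16.8 to 13.6 points, that of miR168a-5p from 0.876 to 1.99 (past the threshold without PEG root replicate 2) and the PEG effect on the miR168 share of all reads from 0.0410 to 0.128 percentage points (past it without PEG leaf replicate 2). Under PEG the ratio of miR168b-3p to miR168a-5p ranged from -0.794 to 0.872 and that of RF00677 to miR168 from -0.0833 to 0.211, and the miR162 share of known microRNA counts between organs from -0.0146 to 0.0013.

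With the replicate number as a block, family values between control organs were -2.51 for miR162 and -2.44 for miR168, and no family or name call changed. Signs near 0 turned for miR390 under PEG in roots (-0.00064) and for the difference of miR168b_1 (0.066). In paired sign-flip tests the PEG difference of the miR162a-3p share (-61.6 points) had an exact p of 0.0625, as had the organ difference of miR168b-3p per 100 miR168a-5p (-3.38). In the same test the PEG difference of the miR168 share of known microRNA counts had an exact p of 0.03125, the smallest that these flips allow. That measure was not planned and did not pass without pairing (exact permutation test, p = 0.055, adjusted p = 0.165). The sign-flip p-values are unadjusted, and the titles do not state what the replicate number pairs. In roots 45 to 316 miR162 counts limit the precision of that family.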
